A study of Mus musculus with 6 samples.

Results

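The genes described here encode 10 plasma membrane amino acid transporters: Slc7a5, Slc3a2, Slc7a11, Slc1a5, Slc1a4, Slc38a1, Slc38a2, Slc7a1, Slc7a3 and Slc6a9. They were taken from a list of symbols, through the 20 probe sets that the array annotation maps to exactly 1 of those symbols, and each gene was represented by its probe set with the highest mean log2(signal + 50) over all arrays. The table held 45101 probe sets and represented 18193 genes by probe sets with 1 symbol. All 10 transporter genes passed the filter on low signals (a mean of at least 100 over the 6 arrays) and were among the 9361 genes tested. Their RNA was measured in E0771-HML2 cells and in E0771-parental cells, with 3 cultures and 3 arrays in each group. E0771 is a mouse mammary tumour line of C57BL/6 origin. HML2 is a population selected in mice and not described as a clone: E0771 cells implanted orthotopically in animals of the same strain were collected as lung metastases, and a second round gave the generation used here. The parental cells were not selected. Neither group carried a named transgene or received a treatment, and both were grown for 3 days in medium with 10% serum, which itself supplies amino acids. The labels call the cultures biological replicates. Whether each HML2 culture had its own mouse is not stated, and all p-values rest on culture-to-culture spread, which may be technical.

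Amino acid transporters fall into uniporters, exchangers and sodium-driven concentrators, and most cells use several kinds together. The glycoprotein 4F2hc, encoded by Slc3a2, is the shared heavy chain of several exchangers and carries their light chains to the cell surface. Its light chain LAT1, encoded by Slc7a5, brings in leucine and other large neutral amino acids in exchange for intracellular ones such as glutamine, and its light chain xCT, encoded by Slc7a11, brings in cystine in exchange for glutamate. Glutamine itself enters through ASCT2, encoded by Slc1a5, and through the sodium-coupled carriers SNAT1 and SNAT2, encoded by Slc38a1 and Slc38a2. Many of these genes are known targets of ATF4, the transcription factor whose translation rises when amino acids run short, and several are raised in many tumours.

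The deposited signals are linear, and the mean after trimming 2% at each end was 500 on each of the 6 arrays. With that scaling a difference in total messenger RNA between the populations cannot be seen. The 3 tryptophan control probe sets, which are bacterial and a gauge of background, read 1.97 to 36.2. The ratio of 3' to 5' probe sets was 0.77 to 0.82 for Gapdh in HML2 and 0.80 in each parental culture, and 1.36 to 1.39 for beta-actin in HML2, against 1.41 to 1.53 in parental cells. HML2 replicate 1 stood apart from the other HML2 arrays for most of the transporter genes, and results that rest on it are given with and without it. Signals of different probe sets are not compared in level, apart from choosing the brightest and summing the cell type markers.

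Of the 10 transporter genes, 3 were higher in HML2 cells (an adjusted p below 0.05 by limma with Benjamini-Hochberg adjustment over all genes tested), where 12.3% of all genes tested were higher, and 0 were lower, where 14.9% of all genes were. The higher genes were Slc7a5, Slc3a2 and Slc1a5, and these were also the 3 genes whose groups did not overlap, with all HML2 arrays above all parental arrays, as held for 20.6% of all genes; the opposite separation held for 0 of the 10 genes and 23.8% of all genes. The median log2 difference of the 10 genes was 0.22, against -0.019 for all genes tested. Differences are HML2 minus parental on the log2(signal + 50) scale, which understates the change of dim genes. At an unadjusted p below 0.05 the count was again 3 of 10, where 39.2% of all genes were below it in either direction. The remaining 7 genes had log2 differences between -0.21 and 1.05 that did not pass the test.

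**Figure D1:**
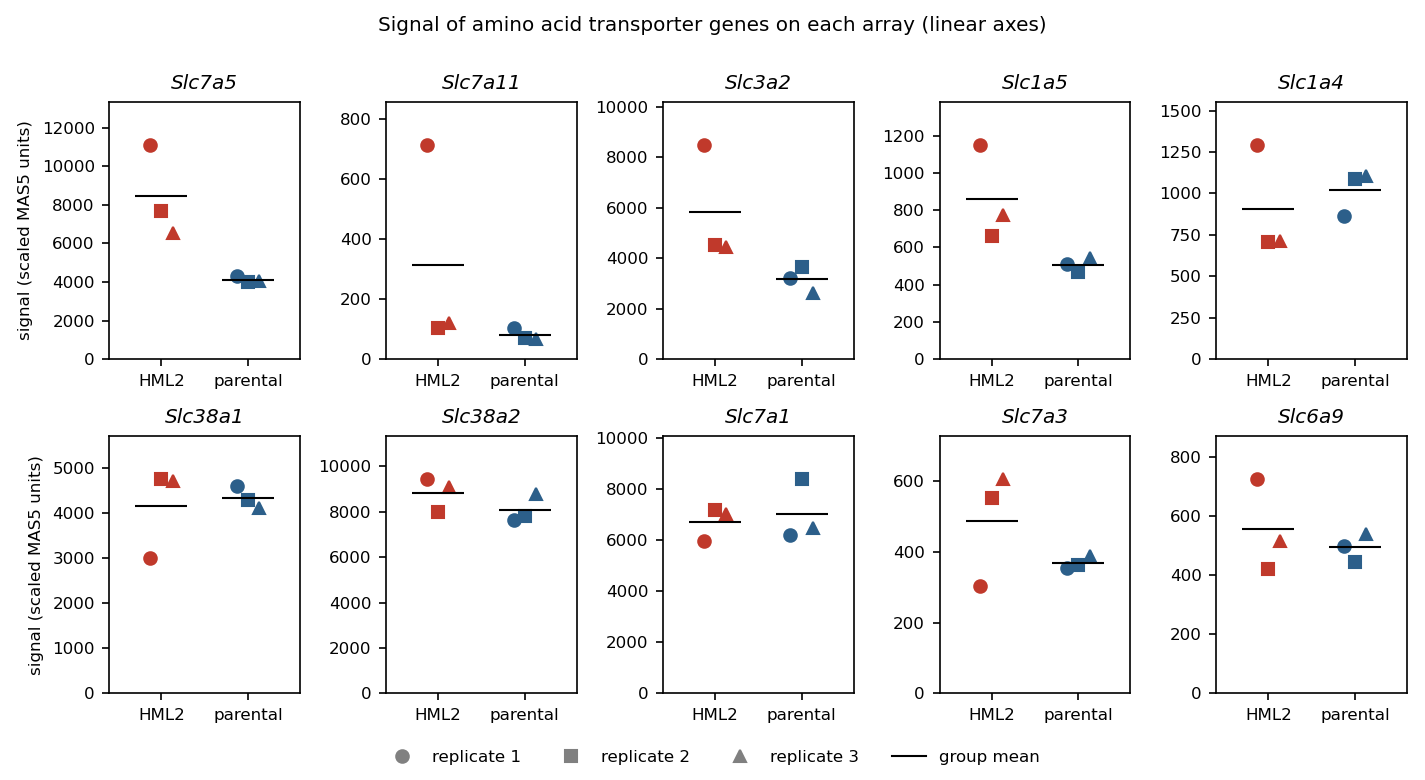
Signals of the 10 transporter genes (scaled MAS5 units, linear axes from 0) on 3 HML2 arrays (red, left) and 3 parental arrays (blue, right); symbols give the replicate number and black lines the group means. The 3 HML2 points lie above the 3 parental points for Slc7a5, Slc3a2 and Slc1a5, and HML2 replicate 1 (circle) lies apart from the other HML2 arrays for most genes.

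Slc7a5, the LAT1 light chain that carries leucine, was the most clearly changed of the 10 genes. Its signals were 11127, 7677 and 6556 on HML2 replicates 1, 2 and 3, against 4316, 4000.4 and 4030.03 on the parental arrays. The parental cultures were nearly alike, all HML2 cultures were above them, and HML2 replicate 1 was the highest. The means were 8453 ± 2383 in HML2 and 4115 ± 174 in parental cells (SD, n = 3 each), 2.05 times as high in HML2. The log2 difference was 0.99 ± 0.18 (SE, adjusted p = 0.0051), larger than that of 96.8% of all genes tested. It was called under all 19 alternatives run, with values between 0.77 and 1.16 over the processing alternatives and single arrays left out, and was 0.78 without HML2 replicate 1. A single probe set represents Slc7a5, so no other probe set could be set beside it.

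Slc3a2, the 4F2hc heavy chain that LAT1 and xCT need to reach the membrane, was higher as well. Its signals were 8503, 4517 and 4448 in HML2 cells, against 3227, 3666 and 2640.1 in parental cells. The groups did not overlap, and HML2 replicate 1 lay far above the other HML2 arrays, which were close to each other. The means were 5822 ± 2321 in HML2 and 3178 ± 515 in parental cells (SD, n = 3 each), and the log2 difference was 0.81 ± 0.25 (SE, adjusted p = 0.042). Leaving out any parental array ended the call (adjusted p = 0.096 without replicate 1, 0.065 without replicate 2 and 0.15 without replicate 3), while without HML2 replicate 1 the difference was 0.50 and the call held (adjusted p = 0.020). Between arrays of the same replicate number, the HML2 value exceeded the parental one by 1.38, 0.30 and 0.74 on the log2 scale for numbers 1, 2 and 3. The gene has 1 probe set on the array with a single symbol.

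Slc7a11, the xCT light chain that imports cystine for glutathione synthesis, had the highest point estimate of the 10 genes and did not pass the test. Its signals were 715, 103 and 120.4 in HML2 cells, against 105, 71.6 and 68.8 in parental cells. HML2 replicate 1 was alone in its high signal, and HML2 replicate 2 lay below parental replicate 1, so the groups overlapped. The parental signals averaged 81.8, under the minimum of 100, so the gene passed the filter through the HML2 arrays alone. Without HML2 replicate 1 its mean would lie under the minimum. Between arrays of the same replicate number the log2 differences were 2.30, 0.34 and 0.52 for numbers 1, 2 and 3. The fitted log2 difference was 1.05 ± 0.54 (SE, 95% interval -0.19 to 2.29, adjusted p = 0.19, or 0.055 in a fit with the replicate number as a term), and 0.31 without HML2 replicate 1 (adjusted p = 0.32). On the log2 scale HML2 replicate 1 was 2.24 above the average of HML2 replicates 2 and 3, a deviation larger than that of 99.8% of all genes tested. A dimmer probe set of the gene read 351, 51.8 and 151 in HML2 cells, against 100.2, 76.9 and 81.7 in parental cells, and was not called either, although it was called at 0.042 when HML2 replicate 2 was left out. All HML2 cultures were above all parental ones for the leucine light chain, and not for the cystine light chain on either probe set.

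The promoter of Slc7a11 carries a pair of the letters bound by heterodimers of ATF4 with C/EBP proteins, and is printed for that reason beside the promoter end of Slc1a4, which holds the same letters once, and that of Slc3a2, which holds none. Sequences are from RefSeq (build GRCm38.p6), each read 5′ to 3′ on the gene's strand from 120 bases before the annotated start, with the letters TTGCATCA or their reverse complement in capitals.
Slc7a11: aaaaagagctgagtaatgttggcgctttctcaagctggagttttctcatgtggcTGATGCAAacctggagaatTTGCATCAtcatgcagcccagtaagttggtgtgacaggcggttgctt
Slc1a4: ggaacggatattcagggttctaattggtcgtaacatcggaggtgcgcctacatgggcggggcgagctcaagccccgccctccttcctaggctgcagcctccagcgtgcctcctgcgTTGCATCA
Slc3a2: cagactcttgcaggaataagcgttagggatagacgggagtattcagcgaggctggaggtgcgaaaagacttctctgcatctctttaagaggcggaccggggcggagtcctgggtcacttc
These stretches lie on the minus strand at chr3:50443614-50443733 for Slc7a11, chr11:20332710-20332833 for Slc1a4 and chr19:8713898-8714017 for Slc3a2. The Slc7a11 stretch ends at the base before the start and that of Slc1a4 runs 4 bases past it. In Slc7a11 the matches begin 66 and 47 bases before the start, the upstream one on the reverse strand and the downstream one on the forward strand, and in Slc1a4 the match spans the start.

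The motif was searched on both strands in windows of 300 bases, from 250 before to 50 after each start. RefSeq's table had 9 such windows for 6 of the 10 genes; Slc7a5, Slc1a5, Slc38a1 and Slc7a3 had none. TTGCATCA was found in 294 of 32851 windows of the table (0.895%) and in 0.548% of the 9847 windows of genes tested. Only 2 windows of the whole table held it more than once, and the one of Slc7a11 is among them. Of the 9 windows of the transporter genes 2 held it (22.2%), as did 8 of 34 windows of the amino acid response genes described further on (23.5%). The response genes were listed as targets of ATF4 and its partners, and many of the transporter genes are known ATF4 targets too. A high share could therefore be foreseen in both lists. Letters of the antioxidant response element, TGACNNNGC, were found in a window of Slc7a1, of Slc38a2 and in 2 windows of Slc6a9. These were 44.4% of the 9 windows, beside 12.4% of all windows, 14.2% of windows of genes tested and 29.4% of response gene windows. The E-box CACGTG was found in 0 of the 9 windows, beside 7.15% of all windows and 10.4% of windows of genes tested. The motifs do not overlap each other in these windows. A match describes letters in a window and is not a measured binding site. A lack of a match covers only these exact letters within the window, and other spellings or places were not searched.

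Slc1a5, the glutamine exchanger ASCT2, was higher in HML2 cells. Its signals were 1153, 662 and 772 in HML2 cells, against 511, 468 and 544 in parental cells, and the groups did not overlap. The means were 862 ± 257 in HML2 and 507 ± 38.2 in parental cells (SD, n = 3 each), with a log2 difference of 0.68 ± 0.20 (SE, adjusted p = 0.038). The call was lost without HML2 replicate 3 (0.73, adjusted p = 0.073) and without parental replicate 1 (0.68, 0.091), 2 (0.62, 0.11) or 3 (0.72, 0.093), and held without HML2 replicate 1 (0.46). A dimmer probe set of Slc1a5 separated the groups more clearly: it read 314, 352 and 376 in HML2 cells, against 115, 189 and 153 in parental cells. Its log2 difference was 0.99 ± 0.18 (SE, adjusted p = 0.0057 in the fit over all probe sets), it was called with any single array left out, and HML2 replicate 1 was the lowest of its HML2 arrays.

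Slc1a4 encodes ASCT1, which exchanges alanine, serine and cysteine. Its signals were 1295, 710.2 and 710.5 in HML2 cells, against 866, 1089 and 1107 in parental cells. HML2 replicate 1 was the highest of all arrays and the other HML2 arrays were the lowest, so the groups overlapped and the log2 difference of -0.21 ± 0.23 (SE) did not pass the test (adjusted p = 0.54). Without HML2 replicate 1 the gene was called lower in HML2, at -0.49 (adjusted p = 0.025). Its other probe sets read 508, 252 and 223 in HML2 against 315, 468 and 295 in parental cells, and 143, 131 and 102 in HML2 against 132, 192 and 187 in parental cells. All 3 probe sets had negative differences that were not called, and without HML2 replicate 1 the dimmer ones were at -0.49 and -0.40, again not called.

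The sodium-coupled neutral amino acid carriers gave no difference past the threshold on their brightest probe sets. Slc38a2, the SNAT2 carrier, read 9451, 7999 and 9068 in HML2 cells, against 7629, 7809 and 8793 in parental cells, with a log2 difference of 0.13 ± 0.11 (SE, 95% interval -0.12 to 0.37, adjusted p = 0.41). Its narrow interval sets it apart from the wide ones of Slc7a11 and Slc1a4, and its other bright probe set had a difference of 0.026. Slc38a1, the SNAT1 carrier, read 3003 on HML2 replicate 1 and 4772 and 4723 on the other HML2 arrays, against 4614, 4309 and 4127 in parental cells, a difference of -0.091 ± 0.18 (SE, adjusted p = 0.75). Here HML2 replicate 1 was the lowest array, in the opposite sense to Slc3a2 and Slc1a4.

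For Slc38a1 the outcome depended on the probe set. Its dimmer probe set read 2202, 1667 and 1701 in HML2 cells, against 1215, 1497 and 1033 in parental cells, without overlap, and was called higher at 0.56 ± 0.17 (SE, adjusted p = 0.047 in the fit over all probe sets). That call remained only when parental replicate 2 was left out, and its value ranged from 0.43 to 0.69 over the single arrays left out. Probe sets of 1 gene cover different stretches of its transcripts, and which transcripts each detects was not tested. Over all 18 probe sets of the 10 genes that passed the filter, 5 were called higher and 0 lower, where 10.7% and 13.5% of all probe sets were. The remaining 2 probe sets, of Slc7a1 and Slc38a2, had mean signals under 100.

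**Figure D2:**
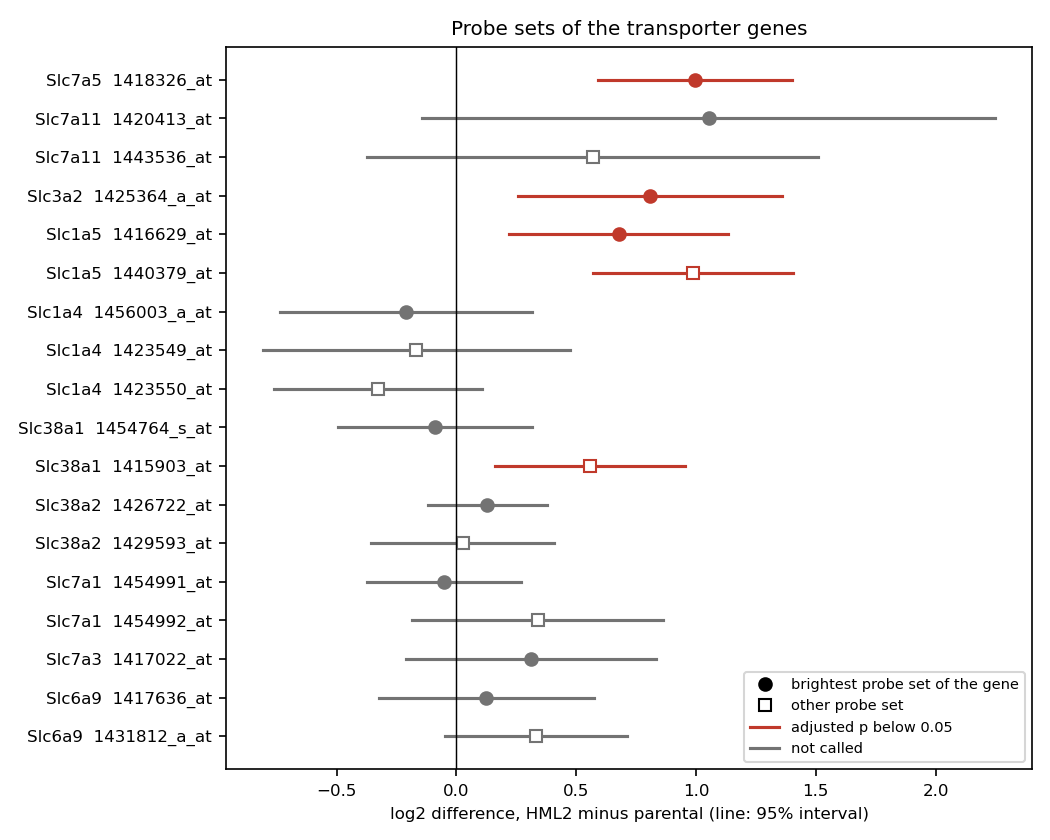
Log2 differences, HML2 minus parental, with 95% intervals for the 18 probe sets of the transporter genes that passed the signal filter; filled circles are the brightest probe set of a gene, open squares its other probe sets, and red marks an adjusted p below 0.05 over all probe sets. Both probe sets of Slc1a5 were called, whereas for Slc38a1 the dimmer one was called at 0.56 and the brightest one, at -0.091, was not.

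Among the carriers of cationic amino acids, Slc7a1, which encodes the arginine and lysine transporter CAT1, read 5949, 7175 and 7002 in HML2 cells, against 6172, 8389 and 6448 in parental cells. The groups lay over each other, with a log2 difference of -0.053 ± 0.14 (SE, 95% interval -0.38 to 0.27, adjusted p = 0.82). A dimmer probe set read 5168, 2574 and 3904 in HML2, against 2649, 3451 and 2782 in parental cells, and had a difference of 0.34 that was not called. Slc7a3 encodes CAT3, a related carrier found mainly in brain in adult mice. Its signals were 304, 553 and 607 in HML2 cells, against 355, 364 and 389 in parental cells. HML2 replicates 2 and 3 were above all parental arrays and HML2 replicate 1 was below them, so that the difference of 0.31 ± 0.23 (SE) was not called on all arrays (adjusted p = 0.36) and was called without HML2 replicate 1, at 0.59 (adjusted p = 0.011).

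Slc6a9, the glycine transporter GlyT1, read 727, 421 and 517 in HML2 cells, against 498, 446 and 540 in parental cells. HML2 replicate 1 was the highest array and HML2 replicate 2 the lowest, and the log2 difference was 0.12 ± 0.20 (SE, adjusted p = 0.68). Its other probe set read 209.8, 172 and 200.3 in HML2 cells, against 144, 161 and 127 in parental cells, without overlap and with a difference of 0.33 that was not called (adjusted p = 0.19).

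**Figure D3:**
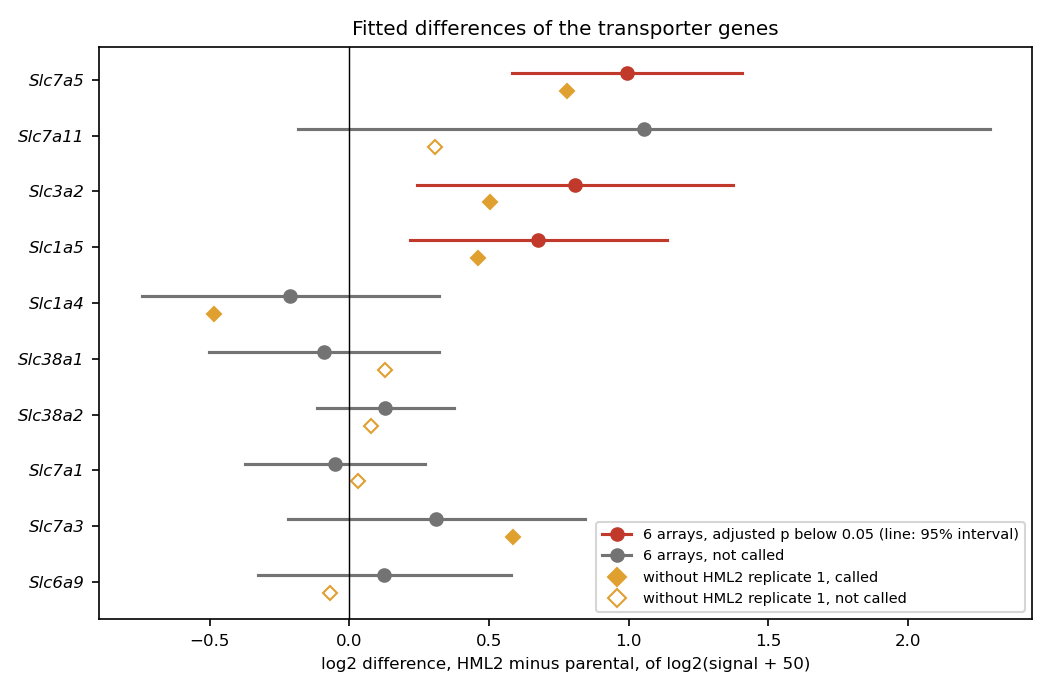
Fitted log2 differences, HML2 minus parental, of the 10 transporter genes on 6 arrays (circles with 95% intervals; red where called at an adjusted p below 0.05) and without HML2 replicate 1 (diamonds, filled where called). Slc7a5, Slc3a2 and Slc1a5 were called both ways, while Slc7a3 (higher, 0.59) and Slc1a4 (lower, -0.49) were called only without that array.

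HML2 replicate 1 was the array on which the transporter genes differed most from each other. For 7 of the 10 genes it read higher than the average of HML2 replicates 2 and 3, the median over all 10 being 0.62 on the log2 scale, while all genes tested had a median of 0.015 and 51.4% of them were above. The upward deviations were 2.24 for Slc7a11, 0.92 for Slc3a2, 0.82 for Slc1a4, 0.65 for Slc1a5, 0.65 for Slc7a5, 0.59 for Slc6a9 and 0.15 for Slc38a2. Slc7a3 (-0.83), Slc38a1 (-0.65) and Slc7a1 (-0.25) deviated downward. Parental replicate 1, which has the same number, showed no such shift: the median deviation of the 10 genes from the other parental arrays was 0.018. Without HML2 replicate 1 the calls numbered 4 higher and 1 lower, where 16.8% of all genes were higher and 19.7% lower, and the median of the 10 genes was 0.22. Without parental replicate 1, 2 or 3, the one call was Slc7a5, where 8.33%, 8.85% and 6.3% of all genes were higher. Without HML2 replicate 2 all 3 calls held, where 9.06% of all genes were higher, and without HML2 replicate 3 those of Slc7a5 and Slc3a2 did, where 7.64% were. Leaving out both arrays numbered 1 gave 4 higher and 1 lower (18.1% and 19.7% of all genes), and leaving out both numbered 2 or both numbered 3 left Slc7a5 alone (4.44% and 1.4% higher). With arrays weighted by their estimated quality, 4 were higher and 1 lower (25.9% and 28.1% of all genes).

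**Figure D4:**
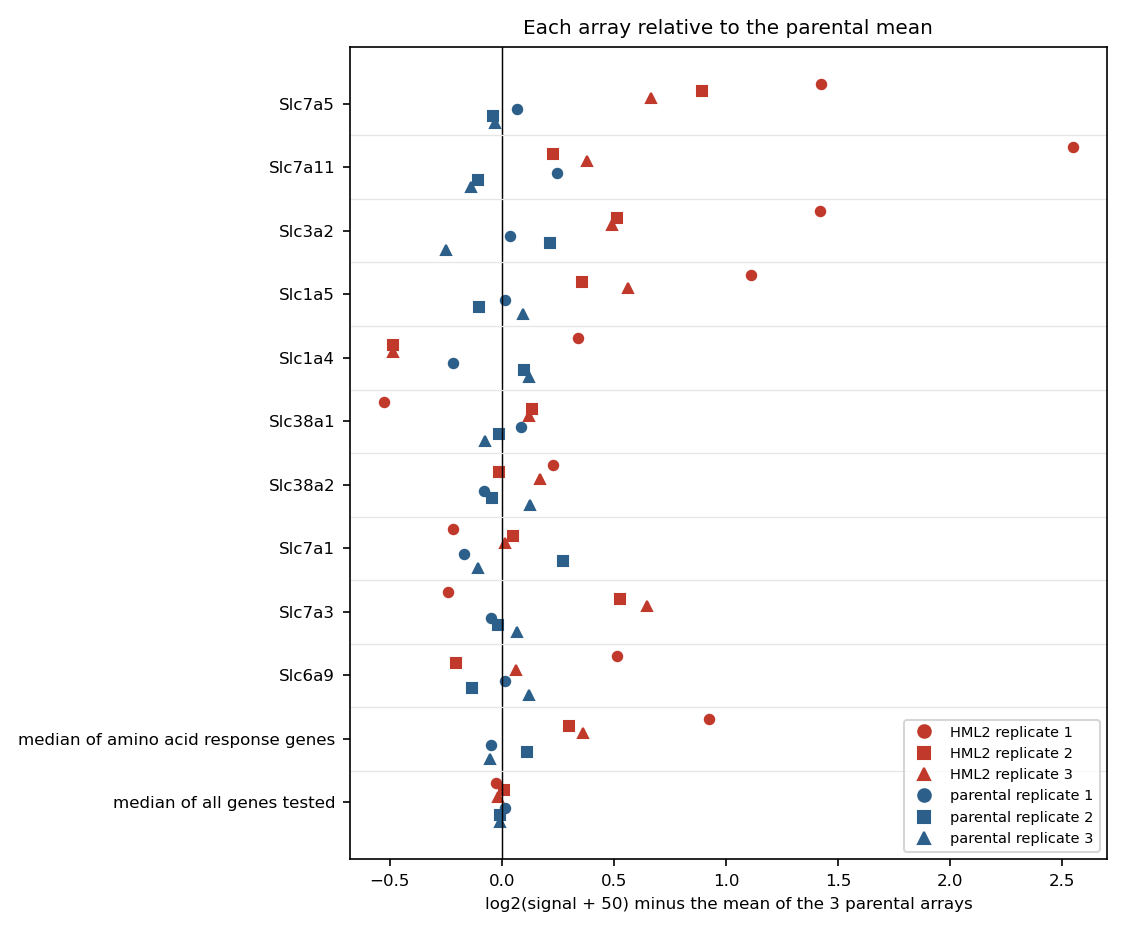
Log2(signal + 50) on each array minus the mean of the 3 parental arrays, for the 10 transporter genes and for the medians of 36 amino acid response genes and of all 9361 genes tested; red symbols are HML2 and blue symbols parental arrays, with 1 shape per replicate number. HML2 replicate 1 lies far right for Slc7a11 (2.55), Slc7a5 (1.42) and Slc3a2 (1.42) and for the response genes (0.93), and left of 0 for Slc38a1 (-0.53) and Slc7a3 (-0.24).

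The genes of the amino acid response, a list of targets of ATF4 and its partners outside the transporters, were described beside them. Of 36 tested, 17 were higher and 0 lower in HML2 cells, where 12.3% and 14.9% of all genes were, with a median log2 difference of 0.51. In a fit with a replicate block, the arrays' number as a term, 23 were higher and 0 lower, where 17.8% and 19.6% of all genes were. On HML2 replicate 1, 35 of the 36 read higher than the average of HML2 replicates 2 and 3, the median over the list being 0.62. Relative to the parental mean, the median of the list was 0.93, 0.30 and 0.36 on HML2 replicates 1, 2 and 3, and without HML2 replicate 1 there were 17 higher and 1 lower, where 16.8% and 19.7% of all genes were, with a median of 0.35. Atf4 itself had signals of 17054, 12679 and 12514 in HML2 cells, against 7888, 9149 and 8238 in parental cells, a difference of 0.73 ± 0.14 (SE, adjusted p = 0.0058) that was called with any single array left out. The largest differences among called members were those of Trib3 (1.68), a pseudokinase that restrains ATF4, Psph (1.27), the last enzyme of serine synthesis, and Wars (1.15) and Sars (1.03), which charge transfer RNA with tryptophan and serine. The call of Psph held with any single array left out. Trib3 lost its call with no signal filter (adjusted p = 0.062) and without HML2 replicate 3 or any parental array (range 1.05 to 2.14), Wars without parental replicate 3 (0.84 to 1.35) and Sars without parental replicate 2 or 3 (0.74 to 1.21). The other 19 genes were not called. Among them was Ddit3 (1.31, adjusted p = 0.095), which was called with the replicate block (0.0055). Cebpb (0.28), Nupr1 (0.25), Cebpg (0.078), Atf3 (0.00016) and Atf5 (-0.17) were called in neither fit. Without HML2 replicate 1 Ddit3 was at 0.64, Cebpb at -0.0050 and Nupr1 at -0.24. Cebpg was then at -0.16, Atf3 at -0.55 and Atf5 at -0.48, and none of these was called.

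Other amino acid transporters and close relatives were counted from a list. Of 39 listed, 37 had a probe set with 1 symbol and 11 passed the filter, of which 0 were higher and 3 lower, where 12.3% and 14.9% of all genes were, with a median of -0.33. Slc6a8, the creatine transporter, read 685, 774 and 659 in HML2 cells, against 4490.1, 3494 and 3191 in parental cells, a log2 difference of -2.31 ± 0.15 (SE, adjusted p = 5.0e-05). Slc6a6, the taurine transporter, read 4123, 4821 and 4465 in HML2 cells, against 7663, 7981 and 7132 in parental cells, a difference of -0.76 ± 0.11 (SE, adjusted p = 0.0016). Both substrates are derivatives of amino acids and not building blocks of protein, and the calls held with any single array left out. Slc38a10 was lower at -0.52 (adjusted p = 0.031), a call lost with probe sets averaged and without HML2 replicate 2 or 3 or parental replicate 1 or 3 (range -0.65 to -0.40).

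Slc36a4, a carrier of proline and tryptophan, was singled out after its values were seen, because its mean fell under the filter through the HML2 arrays alone. It read 1.56, 18.3 and 3.11 in HML2 cells, under the highest signal of the bacterial controls (36.2), against 155, 128 and 157 in parental cells. With no signal filter it was called lower (adjusted p = 0.0013), a setting in which 6.82% of all genes were lower. Of the other light chains that pair with 4F2hc, Slc7a6 read 1414, 2764 and 2497 in HML2 cells, against 1337, 2177 and 1742 in parental cells, and its difference of 0.31 was not called (adjusted p = 0.42), but was called without HML2 replicate 1 (0.60). Slc7a7, Slc7a8 and Slc7a10 had mean signals of 10.2 to 72.9 in HML2 and 23.7 to 51.3 in parental cells. Among the light chain genes listed here, Slc7a5 had a called increase on all arrays, and Slc7a11 and Slc7a6 passed the filter without one.

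Genes that sense amino acids for mTORC1 or relay their shortage to eIF2 alpha had 3 higher and 4 lower members of 26 tested, where 12.3% and 14.9% of all genes were, with a median of -0.06. With the replicate block there were 5 and 4, where 17.8% and 19.6% of all genes were. Besides Atf4, the called genes with the largest differences had lower values, namely Sesn1 (-1.43), a leucine-sensor family member, Depdc5 (-0.83), a subunit of the GATOR1 inhibitor of mTORC1, and Tsc1 (-0.77), a subunit of the complex that restrains the GTPase Rheb. Sesn1 was called with any single array left out. Depdc5 lost its call with probe sets averaged and without parental replicate 1 or 3 (range -0.94 to -0.65). Tsc1 lost its call with no signal filter, with quantile normalization, with probe sets averaged, and without HML2 replicate 3 or any parental array (-0.92 to -0.52). The other called genes of the list were Castor1 (0.66), another sensor gene, and Lamtor3 (0.34), which were higher, and Lamtor4 (-0.66), which was lower. Each of them lost its call with no signal filter and without some of the single arrays. Rragd, a Rag GTPase gene of the same list, was at 0.94 and not called (adjusted p = 0.13), but was called with the replicate block (0.0058). The other listed genes of GATOR1, Nprl2 (-0.099) and Nprl3 (0.39), and Tsc2 (-0.16), of the Tsc1 complex, were not called.

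Enzymes that make or use glutamine and glutamate, the substrates of Slc1a5 and Slc7a11, had 3 higher and 1 lower of 11 tested, where 12.3% and 14.9% of all genes were, and 5 and 3 with the replicate block, where 17.8% and 19.6% were, with a median of 0.20. Asns (0.70), which makes asparagine from glutamine, Got2 (0.66), the mitochondrial aspartate aminotransferase, and Cad (0.42), which starts pyrimidine synthesis, were higher, and Gfpt1 (-0.70), which starts hexosamine synthesis, was lower. Asns was on both lists and was also counted among the higher amino acid response genes. Asns lost its call without parental replicate 3 (range 0.49 to 0.81) and Cad with no signal filter (adjusted p = 0.070), with quantile normalization, without the intensity trend, and without HML2 replicate 2 or 3 or parental replicate 1 or 3 (0.32 to 0.51).

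Genes of cystine use, glutathione and antioxidant defence had 3 higher and 1 lower of 14 tested, where 12.3% and 14.9% of all genes were. With the replicate block there were 5 and 2, where 17.8% and 19.6% were. The median log2 difference of the list was 0.25. Hmox1 (1.01), a haem oxygenase, Gsr (0.69), glutathione reductase, and Gclc (0.50), the catalytic subunit that starts glutathione synthesis, were higher, and Ggt5 (-0.97), a gamma-glutamyltransferase, was lower. Hmox1 lost its call without parental replicate 3 (range 0.73 to 1.18), Gclc without HML2 replicate 2 or parental replicate 1 or 3 (0.42 to 0.57), and Ggt5 without any array but HML2 replicate 1 (-1.19 to -0.78). Ggt5 averaged 75.8 in HML2 and 192 in parental cells, so it passed the filter through the parental arrays alone, and its call was lost with no signal filter (adjusted p = 0.057). Nfe2l2, which encodes the regulator NRF2 of Slc7a11, was at 0.37 and not called (adjusted p = 0.17), but was called with the replicate block (0.023). Cth, which makes cysteine from cystathionine, was under the filter at 199.5, 44.6 and 62.9 in HML2 cells, against 0.902, 5.58 and 1.27 in parental cells, and was named after these values were seen. With no signal filter it was called higher (adjusted p = 0.030), where 5.07% of all genes were higher. Its parental signals were no higher than those of the bacterial controls, so no size is given.

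Myc, a known activator of Slc7a5 and Slc1a5 in other tumour cells, read 8612, 5112 and 5311 in HML2 cells, against 4851, 4132 and 3666 in parental cells. The groups did not overlap, and the difference of 0.55 was not called (adjusted p = 0.080), but was called with the replicate block (0.0072). Of 8 genes of the MYC and MAX family tested, 0 were higher and 4 lower, where 12.3% and 14.9% of all genes were, and 1 and 4 with the replicate block, where 17.8% and 19.6% were. The lower genes were Mxd4, Mxd1 (-0.95), Mxd3 (-0.83) and Mnt (-0.74), all partners of MAX that repress transcription. Another such partner, Mxi1, was at -0.023 and not called (adjusted p = 0.95). Mxd4 read 14.8, 74.2 and 37.4 in HML2 cells, against 2368, 1509 and 2202 in parental cells, and since its HML2 signals were near those of the bacterial controls, no size is given. Mxd1 averaged 52.8 in HML2 and 149 in parental cells, and both genes passed the filter through the parental arrays alone. Mxd3 lost its call with no signal filter, quantile normalization, median centring and probe sets averaged, and without HML2 replicate 3 or any parental array (range -1.07 to -0.58).

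The genes whose array profile was most like that of Slc7a5, by the root mean square difference of mean-centred log2(signal + 50) values over the 6 arrays, were Gstcd (0.077), Rcc2 (0.085) and Ehd4 (0.090). They read, for example, 1504, 960 and 945 in HML2 cells, against 559, 468 and 527 in parental cells, for Gstcd. The measure picks genes that separate the groups as Slc7a5 does and share its high HML2 replicate 1.

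The labelled cell type was checked against marker genes. Of 11 markers of mammary epithelium 3 passed the filter: Krt8 averaged 4175 ± 650 in HML2 and 1095 ± 60.3 in parental cells (SD, n = 3 each) and Esr1, the oestrogen receptor gene, 159 ± 17.5 and 344 ± 49.6. Epcam averaged 83.5 in HML2 and 133 in parental cells, and Cdh1, the E-cadherin gene, 19.4 and 22.9, so defining epithelial markers were dim or within background. The mesenchymal gene Vim averaged 39056 ± 2411 in HML2 and 43558 ± 4869 in parental cells, a difference of -0.15 that was not called (adjusted p = 0.27) but was called with the replicate block (0.026). Sparc averaged 4157 ± 1597 in HML2 and 17489 ± 1994 in parental cells. Of 8 mesenchymal markers 6 passed the filter, with 0 higher and 2 lower, where 12.3% and 14.9% of all genes were. The lower ones were Sparc and S100a4 (-1.98). Zeb1 (-0.023), Twist1 (0.15) and Snai2 (-0.22) were not called, and Cdh2 and Fn1 were under the filter. The summed signal of the 10 fibroblast markers was 1603 to 2926 on HML2 arrays and 24016 to 30021 on parental arrays, mostly from Col3a1 (602 ± 217 in HML2 and 22628 ± 2298 in parental cells) and Pdgfra (873 ± 116 and 1954 ± 519). Of 10 fibroblast markers 3 passed the filter, and Dcn and Lum had group means of 15.7 to 29.4. The summed signal of 13 leukocyte markers was 1000.4 to 1586 on HML2 and 1778 to 6605 on parental arrays, mostly from S100a8 (807 ± 246 and 3144 ± 2612) and Lyz2 (78.9 ± 8.29 and 192 ± 28.9), while Ptprc, the defining leukocyte gene, averaged 8.71 and 5.24. The part of these differences in the transporter results was not tested. Markers of endothelium, lung epithelium, adipocytes and erythrocytes summed to at most 331 on any HML2 array and 337 on any parental array per list, with Kdr, Cldn5, Sftpb, Sftpc, Fabp4, Adipoq, Hba-a1 and Alas2 the brightest. Whether fewer expressing cells or less RNA per cell lies behind a lower signal cannot be told apart in these bulk cultures.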

How the data were processed

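Biotin-labelled RNA from each culture (15 ug of total RNA) was hybridised to 1 Affymetrix Mouse Genome 430 2.0 array. The authors deposited linear intensities for each probe set; the tool was MAS5, per the submitters' processing notes, whose version is not given in the sources used here. Genes were named from the array annotation of 2016, which gave 1 symbol to 34945 probe sets (34741 found in RefSeq's GRCm38.p6 gene table, which updated symbols).

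Values were taken as log2(signal + 50), with a mean signal of 100 as the minimum and the brightest probe set standing for a gene. The comparison used limma 3.58.1 (R 4.3.3) with an intensity trend and no covariate, and Benjamini-Hochberg adjustment over 9361 genes with a threshold of 0.05. A second fit took all 18416 probe sets above the minimum. The fitting procedure was tested on simulated data. The transporters and gene lists were chosen with earlier results of these data known. The genes named were all 10 transporters, up to 4 called genes with the largest differences per list, all called other transporters, Atf4, Nfe2l2, Myc, the 3 genes most like Slc7a5 and the 2 brightest markers per cell type. Those said to be singled out were added after their values were seen. So were Slc7a6, Slc7a7, Slc7a8, Slc7a10, Epcam, Cdh1, Dcn, Lum, Rragd, Castor1, Lamtor3, Lamtor4, Mxi1 and Ptprc. The same holds for Nprl2, Nprl3, Tsc2, Ddit3, Cebpb, Nupr1, Cebpg, Atf3, Atf5, S100a4, Cdh2, Fn1, Zeb1, Twist1 and Snai2. The number of arrays limits the precision. Same-numbered arrays deviated together from their group means (correlations across genes of 0.45, 0.34 and 0.24, above the bound of 0.1). The labels do not say what the number stands for, and HML2 replicate 3 correlated as highly with parental replicate 2 (0.24). A fit with the number as a replicate block was therefore run as an alternative. The main fit and its p-values are unpaired. Other alternatives changed the offset, the minimum, the normalization, the choice of probe set, array weights, the trend and the arrays left out.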

Additional observations from a re-analysis of the deposited data

How the results depend on the processing

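Over 19 alternatives, 156 of 189 differences of single transporter genes kept their direction and their side of the threshold. Slc7a5 and Slc38a2 did so in all 19, and Slc7a11 in all 18 that tested it, since its mean lies under a minimum of 200. Leaving out both arrays of a replicate number was added after the data were seen. With the replicate block 1670 genes were higher and 1831 lower, and no transporter gene changed its call (3 higher, 0 lower); the difference of Slc3a2 was again 0.81. For other genes named, calls that the block changed stand beside their values.

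Array weights gave 2422 higher and 2631 lower genes, with 1 transporter lower and a median of 0.31. With no signal filter 1 transporter was higher. A minimum of 200 gave a median of 0.13 and quantile normalization 0.29. With 1 array left out, or both of a number, higher genes ranged from 131 to 1690, lower genes from 279 to 1846, higher transporters from 1 to 4, lower transporters from 0 to 1 and the median from 0.15 to 0.30. Both low ends for genes came without both arrays numbered 3. Of single arrays, parental replicate 3 moved the counts most (590 higher and 795 lower without it), and 715 were higher without HML2 replicate 3.

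Slc3a2 and Slc1a5 lost their calls with no signal filter (0.81 and 0.68), and Slc3a2 also with quantile normalization (0.78) and without the intensity trend (0.81). With arrays left out Slc3a2 ranged from 0.50 to 1.06 and Slc1a5 from 0.46 to 0.84; both lost their calls without both arrays numbered 2 or 3. Slc7a3 gained a call with array weights (0.54) and Slc1a4 likewise (-0.53); with arrays left out they ranged from 0.14 to 0.59 and from -0.59 to -0.014, called without HML2 replicate 1 or both arrays numbered 1.

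No reversed difference was called. Slc7a1 was at 0.14 with probe sets averaged and 0.074 with array weights, and ranged from -0.14 to 0.083 with arrays left out. Slc38a1 was at 0.23 and 0.14 under the same settings and ranged from -0.23 to 0.17. Slc6a9 was at -0.060 with array weights and ranged from -0.071 to 0.29. The cause of these changes was not tested. Slc7a11 signals near 100 are close to the minimum and limit what can be said of it.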
